A study of Homo sapiens with 19 samples.

Results

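The 10 genes followed here belong to the cell's response to low oxygen and to glucose use: PKM, LDHA, PDK1, SLC2A1, SLC2A3, BNIP3, EGLN3, NDRG1, VEGFA and ADM. They were chosen by name from that pathway, as 10 of 22760 genes with a read on an annotated intron, and their level is the number of spliced reads on the introns of each gene. The libraries are 19 ribosomal RNA-depleted RNA-seq libraries of 3 human cell lines. HUES66 is a human embryonic stem cell line, HEK293 an embryonic kidney-derived line and A375 a melanoma line. Wild-type HUES66, wild-type HEK293 and A375 each gave 1 library of total RNA, and A375 also gave 1 nuclear and 1 cytoplasmic library. The other 14 libraries are HUES66 cells given 1 µg/ml doxycycline for 24, 48 or 96 hr: a control, labelled wild type, and knockdowns of RBFOX2, an RNA-binding splicing regulator. The total KD is labelled as a knockdown of RBFOX2 as a whole, and the N-short KD and N-long KD as isoform knockdowns. The labels name neither the knockdown construct nor whether the cells are 1 clone, and they do not say that libraries came from separate cultures, so p-values measure only the spread between these libraries.

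Cells that lack oxygen stop hydroxylating the HIF alpha subunits, which then pair with ARNT and switch on genes whose promoters or enhancers carry a short core motif, ACGTG or GCGTG. Those genes bring more glucose into the cell, favour lactate over mitochondrial oxidation, trim mitochondria and send out signals for new vessels. Pluripotent stem cells and many cancer lines also run much of this glucose programme with oxygen present.

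The 14 treated libraries form 4 library sets that share a time point and a replicate number. Replicate 1 at 24 hr has total KD, N-short KD and N-long KD but no control. Replicate 2 at 24 hr has control, N-short KD and N-long KD but no total KD. The 48 hr and 96 hr sets have all 4 groups with 1 library each. Library names give the first 24 hr set the same series prefix as wild-type HUES66, the second another, and the 48 hr and 96 hr sets another prefix that they share, so replicate and library series cannot be told apart at 24 hr, nor 24 hr from series. Treated libraries held 9622841 to 14625040 spliced reads. RBFOX2 itself was at 126 to 133 CPM (reads per 1000000 spliced reads on annotated introns of 1 gene) in the 3 controls. With total KD it lay at 51.1 to 83.3 CPM over 3 libraries, with N-long KD at 76.7 to 92.7 over 4 and with N-short KD at 113 to 128 over 4. Pluripotency genes POU5F1 (1079 CPM) and DNMT3B (1571 CPM) were spliced in wild-type HUES66, and A375 expressed SOX10, MITF, S100B and MIA while MLANA and TYR were at 0 reads and PMEL at 0.507 CPM. Of the markers listed for HEK293, NEFL was at 40.3 CPM there and 30.4 in A375, NEFM at 12.2 and 0, GATA3 at 6.004 and 1.01, and LHX1 at 5.11 and 1.902.

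Shown first are promoter stretches of the 3 genes that differed most between the 24 hr sets, as context for the HIF motif, and then the exon pair of PKM. RefSeq promoter windows (GRCh38.p14, 250 bases before to 50 after the start) were matched for 7 of the 10 genes, 9 windows in all, and not for SLC2A3, NDRG1 and VEGFA. ACGTG or GCGTG was found on either strand in 7 of the 9 windows, against 48.4% of 35116 windows of the same length. By gene it was found in 6 of the 7, where LDHA and PDK1 have 2 windows each. No share by gene was taken for comparison. ACGTG alone was in 3 of the 9, those of BNIP3, LDHA and PDK1, against 21.4% of all windows. The stretches of 90 bases below, read 5′ to 3′ on each gene's strand and ending before the start site, show where those matches lie, with the motifs in capitals. CACGTG reads ACGTG on both strands, which counts as 2 overlapping matches, and CACGT and CACGC are the motifs on the opposite strand.
BNIP3, chr10:131981990-131982079, minus strand: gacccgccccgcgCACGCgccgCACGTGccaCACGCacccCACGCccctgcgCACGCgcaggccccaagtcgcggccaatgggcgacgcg
LDHA, chr11:18394450-18394539, plus strand: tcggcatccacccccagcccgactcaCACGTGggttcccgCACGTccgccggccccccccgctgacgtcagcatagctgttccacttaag
PDK1, chr2:172556000-172556089, plus strand: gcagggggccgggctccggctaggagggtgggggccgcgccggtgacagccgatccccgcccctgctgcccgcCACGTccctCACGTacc
The BNIP3 window held 6 matches, the LDHA window shown 6 (3 of them in the stretch), and the PDK1 window shown 2. A second LDHA window and the windows of ADM, SLC2A1 and PKM held 1 GCGTG each, and the EGLN3 window and a second PDK1 window held none. A match is a description of letters in the window, and no result below rests on it.

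PKM, which makes the last ATP of glycolysis while forming pyruvate, is read either with exon 9 (the M1 enzyme of muscle and brain) or with exon 10 (the M2 enzyme of embryonic and tumour cells). Both exons are 167 bases long and coding, and 105 of the 167 positions (62.9%) are identical. They are shown 5′ to 3′ on the gene's minus strand (GENCODE 29, GRCh38) with the 62 differing bases in capitals.
PKM exon 9, chr15:72203022-72203188: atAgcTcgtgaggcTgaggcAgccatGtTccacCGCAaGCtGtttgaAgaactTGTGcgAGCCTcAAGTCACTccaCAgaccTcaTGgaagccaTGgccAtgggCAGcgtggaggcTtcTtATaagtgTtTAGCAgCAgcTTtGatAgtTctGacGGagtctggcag
PKM exon 10, chr15:72202454-72202620: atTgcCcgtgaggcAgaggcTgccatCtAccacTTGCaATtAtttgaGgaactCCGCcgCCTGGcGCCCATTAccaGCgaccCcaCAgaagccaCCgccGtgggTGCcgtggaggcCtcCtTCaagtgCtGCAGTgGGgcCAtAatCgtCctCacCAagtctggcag

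To compare levels between genes, reads were taken per intron: the median CPM over the introns of 1 principal transcript of each gene. On that scale the order in the treated HUES66 libraries was PKM (median 126), LDHA (76.1), SLC2A3 (64.7), SLC2A1 (17.9), BNIP3 (8.41), ADM (6.33), PDK1 (2.45), VEGFA (2.28), EGLN3 (1.81) and NDRG1 (0.360). Of the neighbours in that order, 3 pairs did not overlap in range across the 14 libraries: all values of SLC2A3 lay above the highest of SLC2A1 (27.9), the lowest of ADM (4.69) above the highest of PDK1 (4.15), and the lowest of EGLN3 (1.48) above the highest of NDRG1 (0.695). The other 6 neighbouring pairs overlapped, as PKM at 110 to 136 did with LDHA at 68.3 to 144. The 2 enzymes at the end of glycolysis and the transporter SLC2A3 had the most spliced reads per intron of the 10 in these stem cells. None of the 10 genes shared an annotated intron with another gene.

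**Figure D1:**
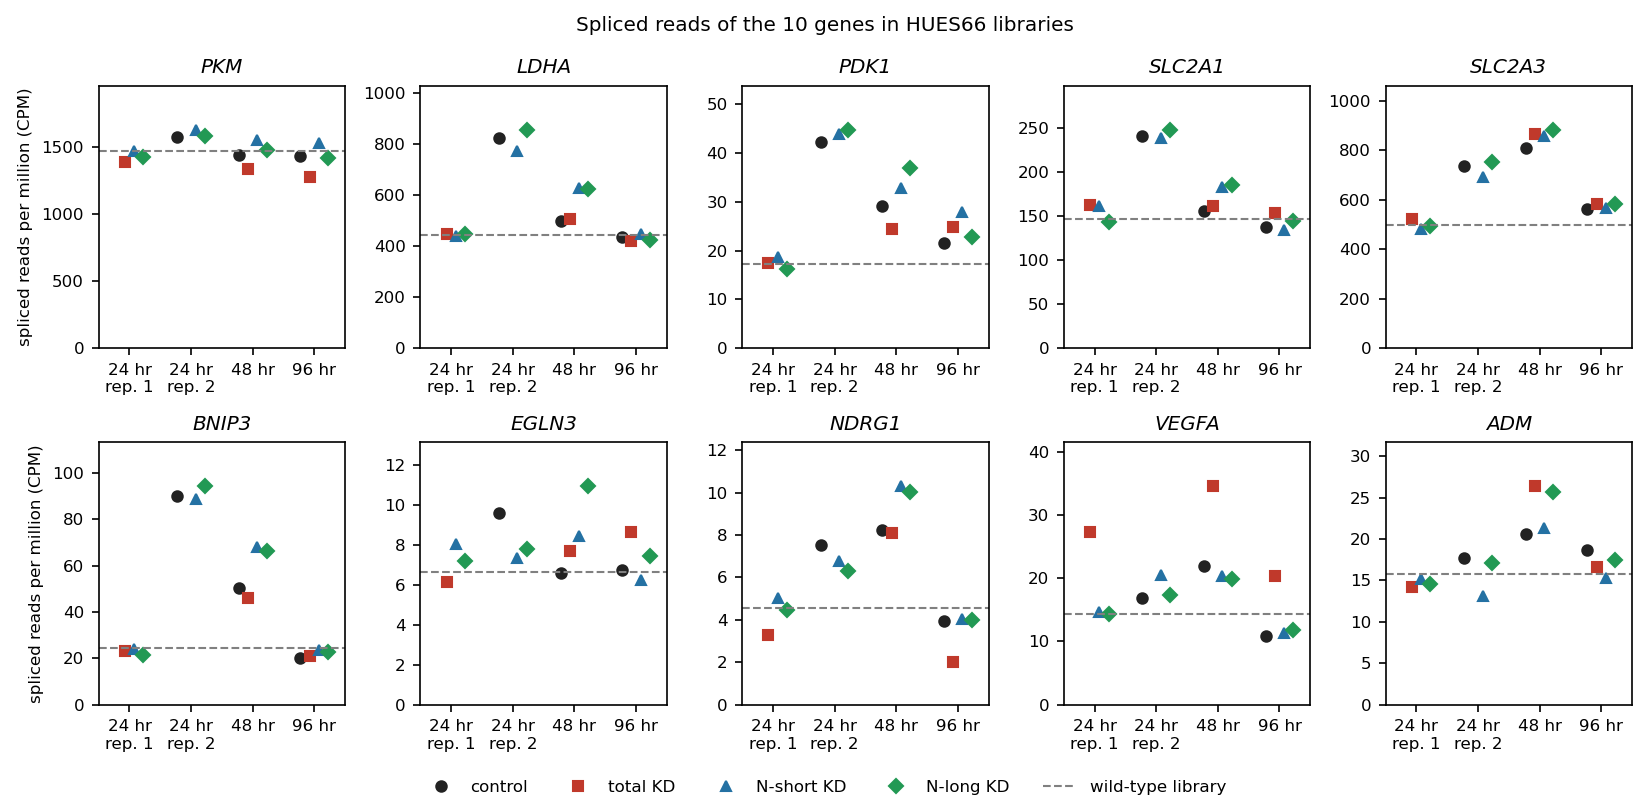
Spliced reads (vertical axes, CPM, from 0) of the 10 genes in the 14 treated HUES66 libraries, by library set (horizontal axes), with 1 point per library and the symbol giving the knockdown; the dashed line is the wild-type HUES66 library. BNIP3, LDHA, PDK1 and SLC2A1 are highest in the second 24 hr set, while VEGFA stands apart in the red total KD squares.

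In the second 24 hr set all 3 libraries had more spliced reads of the glucose and mitochondrial genes than any library of the first, whatever their knockdown. In the second set against the first, 8 of the 10 genes rose and none fell (edgeR's quasi-likelihood test over the 14 libraries, adjusted p under 0.05), where 16.9% of 13628 tested genes rose, 16.7% fell and 33.6% did either. The median log2 change was 0.57 over the 10 genes, against 0.00 for all genes. This comparison was added after the values had been seen. Each side is 1 library set of 1 series, so p-values between the 24 hr sets, here and below, do not cover the spread between sets.

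BNIP3 moves to the outer mitochondrial membrane and marks mitochondria for removal. It was at 21.6 to 24.1 CPM in the 3 libraries of the first 24 hr set and at 88.7, 90.3 and 94.4 CPM in the N-short KD, control and N-long KD libraries of the second. Groups did not overlap, and the fitted rise was 1.97 ± 0.09 (log2, SE; adjusted p = 3.8e-17, edgeR). Within the knockdowns present in both sets the ratio was 3.68 for N-short KD and 4.37 for N-long KD.

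PDK1 phosphorylates and stops pyruvate dehydrogenase, keeping pyruvate from the mitochondria. Its level was 16.2 to 18.6 CPM in the first set and 42.2 to 44.8 CPM in the second, a rise of 1.32 ± 0.10 (log2, SE; adjusted p = 1.5e-11, edgeR). LDHA, which turns pyruvate into lactate, was at 440 to 447 CPM against 771 to 855 CPM, a rise of 0.88 ± 0.05 (adjusted p = 4.2e-14). Both were higher in every library of the second set than in any of the first. PKM, upstream of both, rose by 0.12 ± 0.03 (adjusted p = 0.0015), from 1393 to 1475 CPM in the first set to 1580 to 1631 CPM in the second.

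The glucose transporters followed. SLC2A1 (GLUT1), the common transporter of growing cells, was at 143 to 163 CPM and then 239 to 248 CPM, a rise of 0.68 ± 0.06 (log2, SE; adjusted p = 4.7e-11, edgeR). SLC2A3 (GLUT3), a high-affinity transporter of neurons and early embryos, was at 482 to 523 CPM and then 693 to 752 CPM, a rise of 0.57 ± 0.03 (adjusted p = 1.9e-14). Neither gene's groups overlapped.

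The remaining genes are those for secreted signals, oxygen sensing and stress. NDRG1, a stress-induced gene of growth arrest, rose by 0.57 ± 0.18 (log2, SE; adjusted p = 0.014, edgeR), from 3.30 to 5.02 CPM up to 6.29 to 7.52 CPM. VEGFA, the vessel growth factor, rose by 0.30 ± 0.10 (adjusted p = 0.024) once the knockdown was in the model, although its raw levels of 14.3 to 27.2 CPM and 16.8 to 20.5 CPM overlapped. Neither of these 2 calls held throughout: NDRG1 had an adjusted p of 0.057 without the N-long KD library of the first set and 0.074 without the control of the second, and VEGFA one of 0.097 and 0.073 without the N-short or N-long KD library of the first set and 0.23 without the N-short KD library of the second. DESeq2 gave 0.057 for NDRG1 and 0.066 for VEGFA. EGLN3, a prolyl hydroxylase that marks HIF for destruction and is itself a HIF target, differed by 0.23 ± 0.18 (adjusted p = 0.35), and ADM, the vasodilator adrenomedullin, by 0.13 ± 0.12 (adjusted p = 0.42).

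The wild-type HUES66 library, of the same library series as the first 24 hr set, lay near it: 24.6 CPM for BNIP3, 444 for LDHA, 17.3 for PDK1, 147 for SLC2A1 and 499 for SLC2A3. Other genes of the pathway moved between the sets as well. Of 22 tested genes in a list of further hypoxia-induced HIF targets, 17 rose and none fell, with a median log2 change of 0.94. The 3 with the largest changes were the transcriptional repressor BHLHE40 (2.87), PPFIA4 (2.84) and the mTORC1 inhibitor DDIT4 (2.14). Of 19 glycolysis and lactate genes 13 rose and 3 fell (median 0.16), led by the lactate exporter SLC16A3 (4.32, from 0.152 to 0.361 CPM up to 4.61 to 6.99 CPM in the knockdowns present in both sets) and by PFKFB4 (1.55) and PFKFB3 (0.82), which make the activator of phosphofructokinase. Of the 8 HIF subunits and oxygen sensors, ARNT rose (0.26) and EGLN2 fell by 0.78; HIF1A itself did not pass. Of the 8 tested pyruvate dehydrogenase genes PDK3 rose (0.32).

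Other properties of the libraries moved with these sets. The summed level of the pluripotency markers was 3503 to 3662 CPM in the first 24 hr set, 2750 to 2868 in the second, 3096 to 3239 at 48 hr and 3704 to 4499 at 96 hr. Of the 6 tested markers 5 fell from the first to the second 24 hr set. Germ layer markers summed to at most 2.72 CPM in any treated library, with SOX17 and HAND1 at 0 reads in wild-type HUES66. The melanoma markers, of which PMEL is also expressed in HUES66 (50.6 CPM in the wild-type library) while MLANA was at 0 reads, summed to 48.8 to 51.3 CPM in the first 24 hr set, 57.6 to 75.8 in the second, 69.1 to 73.9 at 48 hr and 38.8 to 46.5 at 96 hr. PMEL rose by 0.43 between the 24 hr sets and fell by 0.67 from 48 to 96 hr on the log2 scale. The nuclear RNA markers, which include MALAT1, summed to 61.7 to 64.6 CPM in the first 24 hr set and 51.4 to 54.9 in the second. The part of these differences in the members' levels was not tested. In such bulk libraries fewer cells with a high level and a lower level in every cell cannot be told apart.

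**Figure D2:**
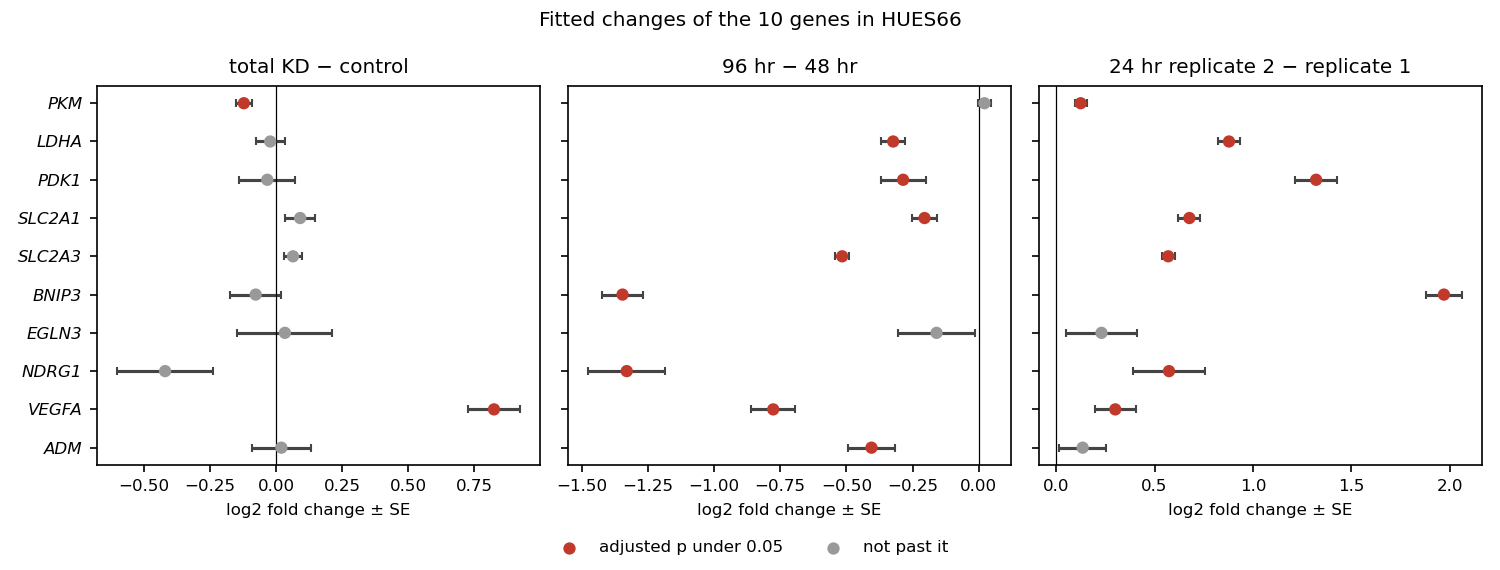
Fitted log2 fold changes (horizontal axes) with SE bars of the 10 genes (vertical axis) for total KD against control, 96 hr against 48 hr, and the second against the first 24 hr set; red points passed an adjusted p of 0.05 (edgeR). VEGFA at 0.82 is alone on the right under total KD, 8 genes lie left of 0 and red at 96 hr, and 8 lie right of 0 and red between the 24 hr sets.

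The 48 hr and 96 hr libraries belong to 1 library series and hold the same 4 groups. Each time is 1 library set, so the p-values here do not cover the spread between sets, and time and set cannot be told apart. The 2 sets of 24 hr, which are of different series, differed by 1.97 in BNIP3, 0.88 in LDHA and 0.30 in VEGFA (log2). From 48 to 96 hr 8 of the 10 genes fell and none rose, where 29.7% of all tested genes fell, 29.3% rose and 59.0% did either. The median log2 change was -0.36 over the 10 genes and -0.01 over all genes. The 2 genes that did not pass were PKM and EGLN3.

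BNIP3 fell most: it was at 45.9, 50.2, 66.5 and 68.1 CPM in the total KD, control, N-long KD and N-short KD libraries of 48 hr, and at 20.8, 19.9, 22.8 and 23.5 CPM in the same groups at 96 hr. Every 48 hr library lay above every 96 hr library, and the fitted change was -1.35 ± 0.08 (log2, SE; adjusted p = 5.0e-16, edgeR). NDRG1 changed by -1.33 ± 0.15 (adjusted p = 1.8e-09), from 8.09 to 10.3 CPM down to 2.02 to 4.06 CPM, again without overlap. These 2 genes fell to between 0.249 and 0.481 of their 48 hr level in each of the 4 groups.

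VEGFA changed by -0.78 ± 0.08 (log2, SE; adjusted p = 1.1e-09, edgeR). It was at 22.0, 34.6, 20.3 and 19.8 CPM in control, total KD, N-short KD and N-long KD at 48 hr and at 10.8, 20.3, 11.3 and 11.8 CPM at 96 hr, so it was lower at 96 hr in each group, and the total KD library at 96 hr lay between the isoform knockdowns of 48 hr. ADM, the other secreted signal, changed by -0.41 ± 0.09 (adjusted p = 2.3e-04), from 20.6 to 26.4 CPM down to 15.3 to 18.6 CPM.

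Among the glucose genes, SLC2A3 changed by -0.52 ± 0.03 (log2, SE; adjusted p = 3.7e-17, edgeR), from 808 to 883 CPM down to 563 to 583 CPM with no overlap. LDHA changed by -0.32 ± 0.04 (adjusted p = 1.4e-07), from 498 to 627 CPM down to 421 to 447 CPM. SLC2A1 changed by -0.21 ± 0.05 (adjusted p = 3.5e-04), from 155 to 185 CPM down to 134 to 153 CPM. For these 3 genes each of the 4 groups was lower at 96 hr than at 48 hr.

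PDK1 changed by -0.29 ± 0.08 (log2, SE; adjusted p = 0.0044, edgeR), from 24.3 to 36.9 CPM to 21.5 to 27.9 CPM; its total KD library was slightly higher at 96 hr (24.9 against 24.3 CPM), and without the N-long KD library of 48 hr the change was -0.18 (adjusted p = 0.080). PKM stayed at 1339 to 1557 CPM and 1279 to 1533 CPM, a fitted difference of 0.02 ± 0.02 (adjusted p = 0.48). The sign of that difference rests on the scaling: PKM's CPM ratio of 96 to 48 hr was 0.955 to 0.993 in the 4 groups, and scaling by library size in place of TMM moves all changes of this comparison by -0.06. EGLN3 was at 6.59 to 10.97 CPM and 6.27 to 8.65 CPM, a difference of -0.16 ± 0.14 (adjusted p = 0.35).

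In the further HIF target list, 16 of 22 tested genes fell and 1 rose (median -0.67), with PPFIA4 (-2.14), DDIT4 (-1.76) and BHLHE40 (-1.46) changing most in the same direction in all 4 groups. Of the 19 glycolysis and lactate genes 9 fell and 3 rose (median -0.08); SLC16A3 (-3.83), the neuronal enolase ENO2 (-0.94) and PFKL (-0.45) changed most. HIF3A fell by 0.77 on the log2 scale, while ARNT2 (0.50) and HIF1AN (0.22), the hydroxylase that blocks HIF's coactivator contact, rose. Among vessel signals and receptors NRP1 rose (1.25), and PGF (-1.03) and the adrenomedullin receptor gene CALCRL (-0.95) fell. The cytoplasmic RNA markers summed to 17201 to 17659 CPM at 48 hr and 13792 to 14239 CPM at 96 hr, and the nuclear ones to 50.1 to 56.1 and 59.97 to 69.8 CPM. Their part in the members' changes was not tested.

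Over the 14 treated libraries the mean of the 10 genes' centred log2 CPM ran from -0.36 (N-long KD, first 24 hr set) to 0.40 (N-long KD, 48 hr), with negative values in all libraries of the first 24 hr set and of 96 hr and positive values in all of the other sets. LDHA was most alike to SLC2A1 (Pearson r = 0.96) and BNIP3 (r = 0.95), whereas the highest r of EGLN3 with any other member was 0.48 (BNIP3), that of VEGFA 0.53 (SLC2A3), that of PKM 0.75 (LDHA) and that of ADM 0.76 (SLC2A3). Of 8289 other genes with a mean of at least 10 CPM, those with the highest r to the members' mean profile were PGK1 (0.99), P4HA1 (0.98), BNIP3L (0.98), PLOD2 (0.98) and COL11A1 (0.98). These correlations describe 14 libraries that share 4 sets.

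Against this background the knockdowns were compared with the control, with the library set as a term in the model. In the total KD 1 of the 10 genes rose and 1 fell, where 2.2% of 13628 genes were called, 1.01% rising and 1.19% falling. VEGFA rose by 0.82 ± 0.10 (log2, SE; adjusted p = 7.2e-07, edgeR). It was at 34.6 CPM against 22.0 CPM in the control at 48 hr (ratio 1.57), and at 20.3 against 10.8 CPM at 96 hr (ratio 1.88). At 24 hr the total KD library had 27.2 CPM, with 14.7 and 14.3 CPM in the N-short and N-long KD libraries of its set and 14.2 in wild-type HUES66. Total KD was the highest library for VEGFA in each of the 3 sets that have one. Its call held in each of the fits that leave out 1 library.

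PKM fell by 0.12 ± 0.03 on the log2 scale in total KD (adjusted p = 0.020, edgeR), from 1445 to 1339 CPM at 48 hr and from 1435 to 1279 CPM at 96 hr. That call was lost without the control of 24 hr (adjusted p = 0.075), the total KD library of 48 hr (0.12), the control of 96 hr (0.16) or the total KD library of 96 hr (0.18), and with time point in place of library set (0.19). NDRG1 differed by -0.42 ± 0.18 (adjusted p = 0.29): it was at 8.09 against 8.24 CPM at 48 hr and at 2.02 against 3.96 CPM at 96 hr. For the other 7 genes the fitted differences lay between -0.08 (BNIP3) and 0.09 (SLC2A1).

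The rest of the pathway in total KD was mostly not called. No gene of the 19 glycolysis and lactate enzymes, the 8 HIF subunits and sensors or the 8 tested pyruvate dehydrogenase genes passed the test. In the HIF target list 3 of 22 rose and none fell: STC2 (1.71 ± 0.14, log2, SE), DDIT4 (1.66 ± 0.19) and the lipoprotein receptor VLDLR (0.31 ± 0.07). DDIT4 and STC2 are also known targets of the amino acid and endoplasmic reticulum stress factor ATF4. Of the 10 genes listed for the ATF4 response 8 rose in total KD and none fell (median 1.00), led by INHBE (2.77), CHAC1 (1.86) and TRIB3 (1.07), and ATF4 itself rose by 0.26. The VEGF receptor gene FLT1, whose product also traps VEGF, fell by 0.23 on the log2 scale, from 162 to 182 CPM in the controls of 48 and 96 hr to 145 to 151 CPM in the total KD libraries of those sets; wild-type HUES66, at 149 CPM, lay inside the latter range. Whether VEGFA's rise depends on the ATF4 genes was not tested.

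None of the 10 genes was called by edgeR under N-short KD, under N-long KD or in the comparison of these 2 groups with each other, and 0, 3 and 2 of 13628 genes were (0.0%, 0.022% and 0.0147%). At an unadjusted p under 0.05, edgeR listed 537, 594 and 693 genes, and DESeq2 called 2, 1 and 3 genes after adjustment. VEGFA under N-short KD differed from control by 0.04 ± 0.10, and under N-long KD by -0.01 ± 0.10 (log2, SE; both adjusted p = 1.0, edgeR). BNIP3 under N-short KD differed by 0.19 ± 0.08, with ratios of 0.983 to 1.36 within sets, and under N-long KD by 0.18 ± 0.08, with ratios of 1.05 to 1.32 (both adjusted p = 1.0). The fitted differences of all 10 genes lay between -0.15 and 0.19 for N-short KD, -0.01 and 0.19 for N-long KD, and -0.07 and 0.20 between the isoform knockdowns. The isoform knockdowns were compared with the same controls as total KD. No gene of the 7 lists was called in these 3 comparisons.

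The use of PKM's exon pair was read from 4 junctions: exon 8 to exon 9 (chr15:72203189-72206727), exon 9 to exon 11 (chr15:72200656-72203021), exon 8 to exon 10 (chr15:72202621-72206727) and exon 10 to exon 11 (chr15:72200656-72202453). The exon 9 share is the mean of its 2 junctions over that mean for both exons. Exon 10 dominated in every library: the exon 9 share lay between 1.16% and 3.35% over the 14 treated libraries. Each share rests on 1298 to 2042 averaged reads, that is the junction means of both exons together. The Wilson intervals were taken on these averaged counts after rounding. HEK293 was at 1.35% (95% Wilson interval 0.831 to 2.18), wild-type HUES66 at 1.47% (1.14 to 1.89) and A375 at 2.02% (1.43 to 2.85), whose intervals overlap; they cover counting error only.

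**Figure D3:**
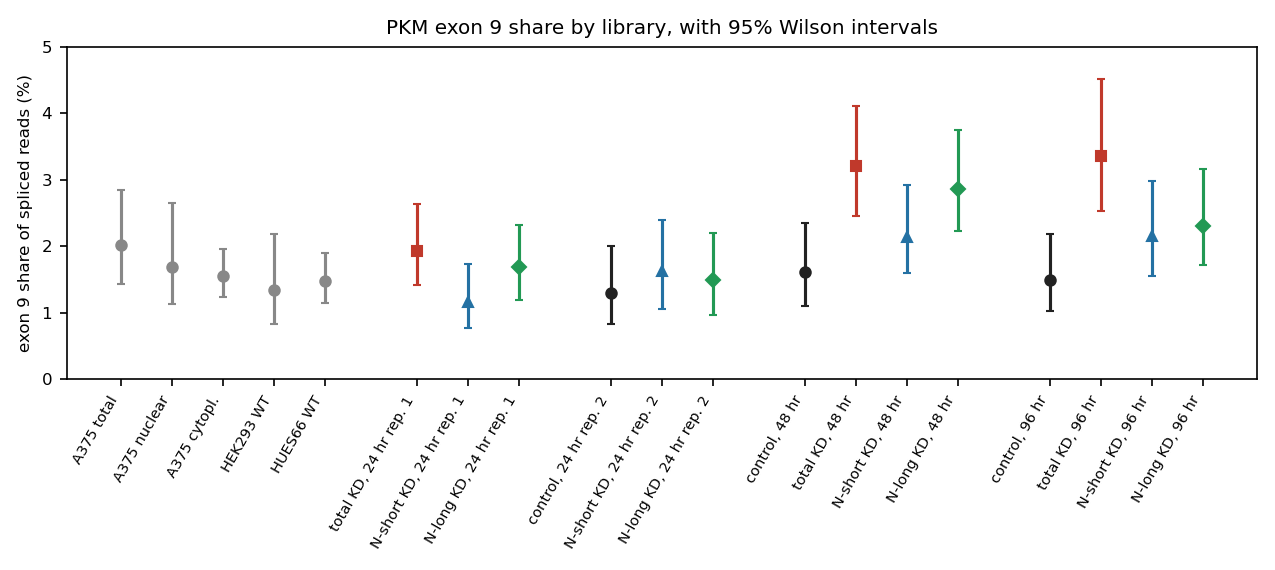
Share of exon 9 (vertical axis, %) among PKM spliced reads on exons 9 and 10 in all 19 libraries (horizontal axis), with 95% Wilson intervals; colours mark control (black), total KD (red), N-short KD (blue), N-long KD (green) and libraries without knockdown (grey). The 2 highest points are the total KD libraries of 48 hr (3.21%) and 96 hr (3.35%).

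Total KD had the highest exon 9 share of its set in each of 3 sets. At 48 hr it was at 3.21% (2.46 to 4.10) against 1.61% (1.10 to 2.35) in the control, and at 96 hr at 3.35% (2.53 to 4.52) against 1.50% (1.02 to 2.18), a mean difference of 1.72 percentage points ± 0.19 (SD, n = 2 sets). The intervals of total KD and control did not overlap at either time. At 24 hr its 1.93% (1.41 to 2.64) overlapped the interval of N-long KD (1.69%, 1.19 to 2.32) and of N-short KD (1.16%, 0.773 to 1.73). N-long KD was at 2.87% at 48 hr and 2.31% at 96 hr, and N-short KD at 2.13% and 2.15%. Both isoform knockdowns also lay above the control in each of the 3 sets with a control. For N-long KD in the second 24 hr set the upstream and downstream junctions disagreed. The upstream junctions alone gave an exon 9 share of 1.88% against 1.08% in the control. The downstream junctions gave 0.759% against 1.68%, on 8 and 17 exon 9 reads. The mean difference was 0.75 percentage points ± 0.53 for N-long KD and 0.50 ± 0.16 for N-short KD (SD, n = 3 sets).

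In the test of junction use (edgeR, the log2 change of a junction relative to the other junctions of its gene), 1 of 76 tested junctions of the 10 genes was called in total KD against control, where 0.0646% of 119177 junctions were. It was the PKM exon 8 to exon 9 junction, whose use rose by 1.18 (adjusted p = 0.0058); the exon 9 to exon 11 junction changed by 0.83 (adjusted p = 0.57). Reads on the first were 58 against 23 at 48 hr and 44 against 25 at 96 hr, and on the second 55 against 29 and 43 against 27. Leaving out the control of 48 hr, the total KD of 48 hr, the control of 96 hr or the total KD of 96 hr gave changes of 1.08 to 1.21 with adjusted p of 0.27, 0.27, 0.080 and 0.31, and limma's test gave 1.17 with an adjusted p of 0.098, so the direction held and the call did not.

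The same junction differed from control by 0.84 under N-long KD (adjusted p = 0.60, edgeR) and by 0.50 under N-short KD (adjusted p = 1.0), and by -0.10 from 48 to 96 hr (adjusted p = 1.0). None of the 76 junctions was called in these comparisons or between the isoform knockdowns, where 0.00587%, 0.0269%, 1.15% and 0.0201% of all junctions were called for N-short KD, N-long KD, time and N-long against N-short KD. At an unadjusted p under 0.05 there were 3, 4, 2 and 0 of the 76. The authors' deposited table of splicing events lists this exon pair in 9 comparisons with an inclusion difference of control minus knockdown. For total KD the authors' deposited table gives -0.005 at 24 hr, -0.016 at 48 hr (p = 0.0014, adjusted p = 0.41) and -0.018 at 96 hr (p = 2.1e-04, adjusted p = 0.20) from the authors' rMATS test. Which exon of the pair counts as included is not given here, so the sign is not read. At 24 hr no library series holds both a labelled control and a total KD library, so the control of that comparison is unclear. In the authors' deposited tables none of the 25 to 36 events of the 10 genes per comparison had an adjusted p under 0.05. Over all genes only 1 to 57 of 45022 to 57221 events per comparison did. The lowest adjusted p among the 10 genes' events was 0.0504 (authors' rMATS test, total KD at 24 hr).

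Between the 24 hr sets 2 PKM junctions were called, where 0.708% of all were: the use of exon 10 to exon 11 changed by -0.31 (log2, adjusted p = 0.0015, edgeR) and that of a junction upstream of the exon pair (chr15:72207278-72208620) by 0.25 (adjusted p = 0.0025). The first of these calls was lost without the N-short KD library of either 24 hr set. The exon 9 share was 1.16% to 1.93% in the first set and 1.29% to 1.62% in the second. Of the regulators of this exon choice, PTBP1 fell by 0.30 and RBM4 by 0.47 between the 24 hr sets, and NEK2 rose (0.29). In total KD none of the 6 regulators passed the test.

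VEGFA encodes isoforms that differ in binding to heparan sulfate: exon 5 joins exon 6 in the longest, exon 7 in the isoform known as 165 and exon 8 in the freely diffusing 121 form. The donor of exon 5 (chr6:43778889-43778918) opens introns that end at chr6:43780731, chr6:43781955 and chr6:43784540. Counts were low, with 15 to 50 reads on that donor in each treated library. Over all 14 treated libraries 107 of 360 reads went to exon 6 (29.7%, 95% Wilson interval 25.2 to 34.6), 152 to exon 7 (42.2%, 37.2 to 47.4) and 101 to exon 8 (28.1%, 23.7 to 32.9).

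Pooled by knockdown over unlike sets (controls include the second 24 hr set and total KD the first), reads to exon 8 were 21 of 70 in controls (Wilson interval 20.5% to 41.5%), 25 of 101 in total KD (17.4% to 34.0%), 25 of 89 in N-short KD (19.8% to 38.2%) and 30 of 100 in N-long KD (21.9% to 39.6%), with overlapping intervals. Exon 6 took 25.7% in controls and 32.7% in total KD. Within the 2 sets that hold both groups, total KD differed from control by -9.59 and -18.7 percentage points in the exon 8 share and by 7.31 and 32.8 points in the exon 6 share, on 18 to 50 reads a library. The tests of the exon 5 to exon 6 and exon 5 to exon 7 junctions gave changes of 0.21 and -0.50 in total KD (both adjusted p = 1.0, edgeR), and the exon 5 to exon 8 junction fell under the filter on low counts. A change in VEGFA's exon use with total KD was not detectable at this depth. Across times, the share going to exon 8 was higher at 96 hr than at 48 hr in each of 4 groups (mean 11.1 points ± 7.7, SD, n = 4), and it was lower in the second 24 hr set than in the first in both groups present in each (mean -17.8 points ± 5.2, SD, n = 2). These differences were not tested for lack of reads on that junction.

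**Figure D4:**
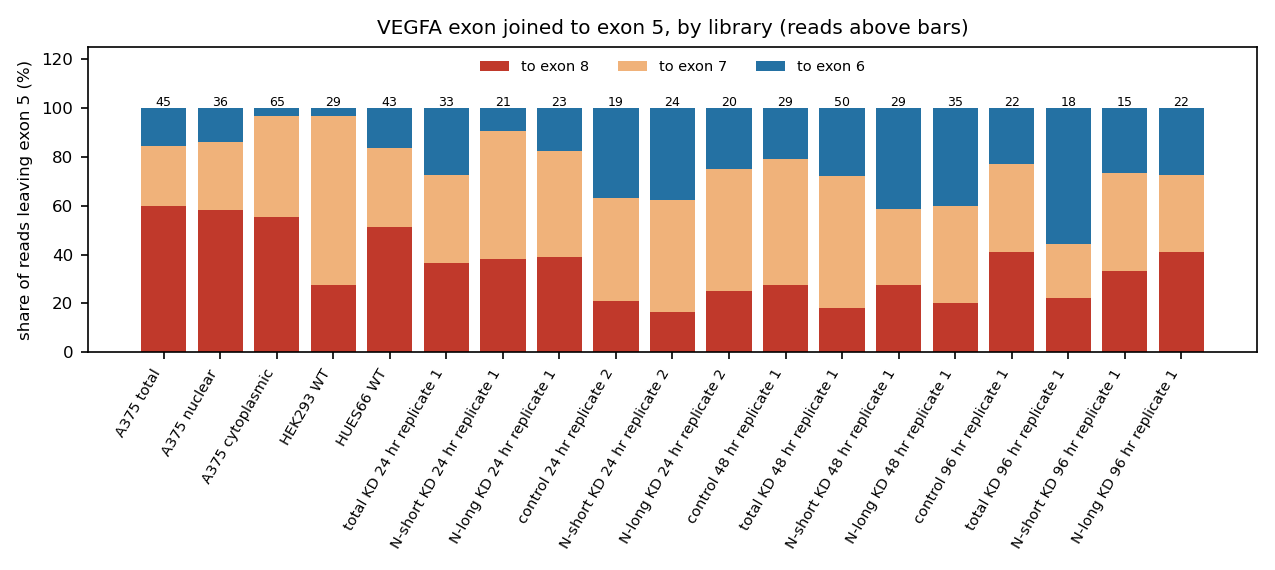
Share of VEGFA reads leaving exon 5 that join exon 6, 7 or 8 (vertical axis, %) in each of the 19 libraries (horizontal axis), with the number of reads above each bar. A375 total RNA sends 27 of 45 reads to exon 8 and wild-type HUES66 22 of 43, and HEK293 sends 20 of 29 to exon 7.

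The cell lines could be compared only as single libraries, with no replicate check; ratios of CPM carry exact intervals for counting error only. The 3 lines also come from different library series, so cell line and series cannot be told apart. Of the 10 genes 5 differed more than 2-fold between A375 and HUES66, 3 higher and 2 lower in A375, where 45.1% of 13845 genes with at least 20 reads did (22.6% higher, 22.5% lower). Between HEK293 and HUES66 2 were higher and 3 lower in HEK293, where 40.1% of genes differed (20.2% higher, 19.9% lower). Between A375 and HEK293 2 were higher and 1 lower in A375, where 38.1% differed (19.3% higher, 18.9% lower). The members' shares lay near those of all genes.

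SLC2A3 was highest in the stem cells: 499 CPM in HUES66, 36.2 in HEK293 and 30.3 in A375, a ratio of HUES66 to A375 of 16.5 (14.5 to 18.8) and to HEK293 of 13.8 (12.3 to 15.4). The other transporter, SLC2A1, was at 147 CPM in HUES66, 119 in A375 and 37.2 in HEK293. NDRG1 ran the other way: 4.54 CPM in HUES66, 47.4 in HEK293, which is 10.4 times (8.49 to 12.9) the HUES66 level, and 77.7 in A375, which is 17.1 times (14.04 to 20.97). EGLN3 had 176 reads in HUES66 (6.67 CPM) and 28 in HEK293 (3.11 CPM) but 1 read in A375, a ratio of A375 to HUES66 of 0.0190 with an interval of 4.8e-04 to 0.107.

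BNIP3 was at 57.6 CPM in A375, 24.6 in HUES66 and 19.2 in HEK293, and VEGFA at 33.6, 14.2 and 22.8 CPM. A375 exceeded HUES66 by 2.34 (2.07 to 2.64) for BNIP3 and 2.36 (2.01 to 2.77) for VEGFA, and both A375 levels lay within the range over the 14 treated HUES66 libraries, 19.9 to 94.4 CPM and 10.8 to 34.6 CPM. PDK1 was at 35.7 CPM in HEK293, 22.8 in A375 and 17.3 in HUES66. The second 24 hr set of HUES66, which shares the library series of HEK293, had PDK1 at 42.2 to 44.8 CPM and LDHA at 771 to 855 CPM, above HEK293 (664 CPM for LDHA), so the direction for these 2 genes turns with the HUES66 library compared. The enzymes varied least, with LDHA at 444 to 664 CPM and PKM at 1472 to 2055 CPM over the 3 lines, and ADM at 10.6 to 15.8 CPM. PKM in HEK293 was 1.03 times (1.01 to 1.05) the HUES66 level, but 0.872 times with TMM scaling, which shifts all HEK293 to HUES66 ratios by -0.24 (log2).

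Receptor genes of the vessel signals differed more. FLT1 was at 149 CPM in HUES66 and 2.03 in A375, while the coreceptor NRP1 was at 4.66 CPM in HUES66, 44.7 in HEK293 and 243 in A375. Of the further HIF targets, 10 of 21 compared were more than 2-fold higher in A375 than in HUES66 and 4 lower. The median ratio was 1.77, against 1.00 for all genes. In HEK293 against HUES66 10 of 21 were higher and 3 lower (median 1.52, all genes 1.08). In A375 against HEK293 3 of 20 were higher and 4 lower (median 0.90, all genes 0.93). ANKRD37 (17.5), BHLHE40 (13.1) and DDIT4 (13.1) had the largest A375 to HUES66 ratios. BHLHE40 was at 12.4 CPM in A375 and 0.947 in wild-type HUES66, and DDIT4 at 38.2 and 2.92. In the isoform knockdowns of the second 24 hr set they were at 6.25 to 7.79 and 12.6 to 15.5 CPM. CA9 was at 0 reads in A375, which allows up to 3 reads.

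**Figure D5:**
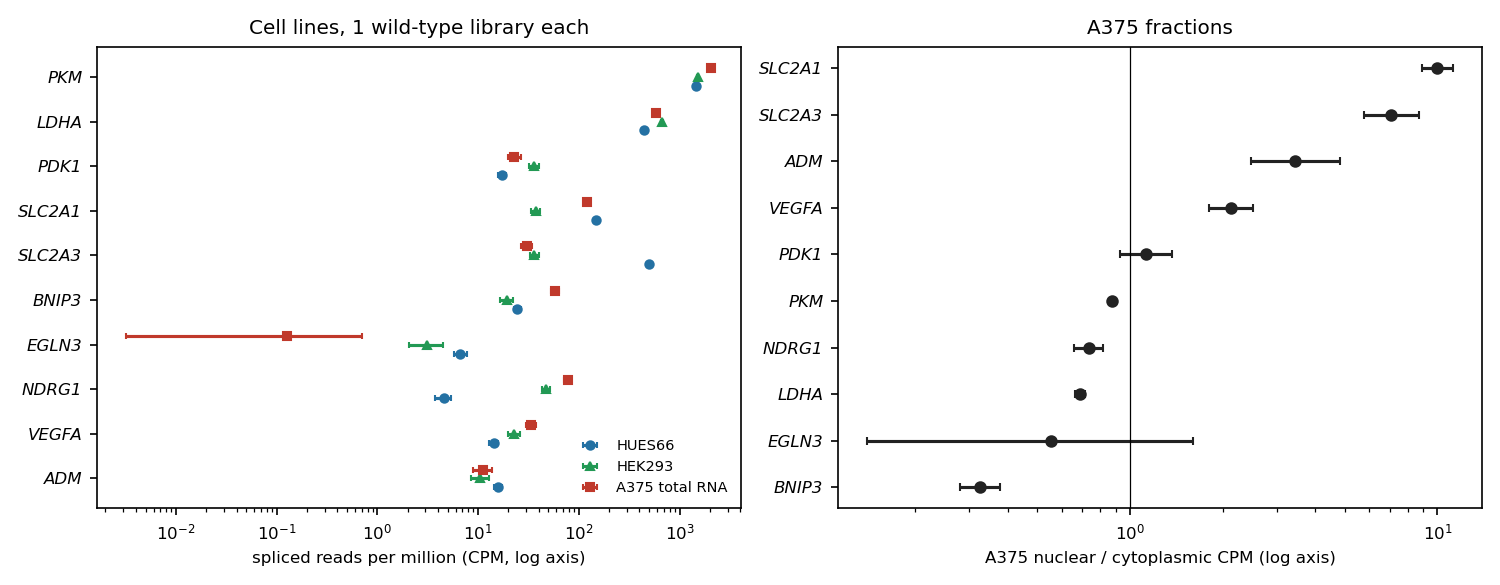
Left, CPM (log axis) of the 10 genes in the HUES66, HEK293 and A375 total RNA libraries with exact Poisson intervals; right, ratio of A375 nuclear to cytoplasmic CPM (log axis) with exact intervals, genes ordered by ratio and the line at 1. SLC2A3 and NDRG1 separate the lines in opposite directions, and SLC2A1 (9.99), SLC2A3 (7.08), ADM (3.45) and VEGFA (2.13) lie right of the line.

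The A375 fractions were compared as 1 library each. Spliced reads of both glucose transporters and of both secreted signals were relatively more abundant in the nuclear library, and those of BNIP3 and LDHA in the cytoplasmic one. PKM, at a ratio of 0.877, lay near the median of all genes (0.929). The nuclear fraction is, per the labels' protocol, the pellet left after lysis with Triton X-100 and 1 wash. Of the 10 genes 4 were more than 2-fold higher in the nuclear library and 1 lower, where 22.8% and 19.1% of 12759 genes were (41.9% in all). Taken in either direction, the members' share lay near that of all genes.

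SLC2A1 had 1172 reads (193 CPM) in the nuclear and 405 (19.3 CPM) in the cytoplasmic library, a ratio of 9.99 (8.92 to 11.2), with 119 CPM in total RNA. SLC2A3 had a ratio of 7.08 (5.77 to 8.72), ADM of 3.45 (2.47 to 4.83) and VEGFA of 2.13 (1.80 to 2.52). The products of these 4 genes are membrane transporters or secreted proteins, which are made at the endoplasmic reticulum. This grouping was noted after the values were seen, and whether it bears on the ratios was not tested.

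BNIP3 was at 32.6 CPM in the nuclear and 100 CPM in the cytoplasmic library, a ratio of 0.326 (0.281 to 0.377). LDHA (0.686, 0.660 to 0.713), NDRG1 (0.733, 0.658 to 0.816) and PKM (0.877, 0.860 to 0.895) were also below 1, where the median of all genes was 0.929. The interval of PDK1 (1.13, 0.925 to 1.37) included 1, as did that of EGLN3, which had 4 and 25 reads. For comparison, the 3 nuclear marker RNAs with enough reads had ratios of 29.4 (MALAT1, 22.03 to 40.002), 3.72 (PVT1, 3.08 to 4.50) and 1.48 (TUG1, 1.22 to 1.79), so the 4 members above 2-fold exceeded TUG1 and lay below MALAT1. The cytoplasmic markers RPLP0, RPS3, ACTB and EEF1A1 lay between 0.334 and 0.471.

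Other genes of the pathway were read the same way. The monocarboxylate transporters SLC16A1 (11.04) and SLC16A3 (8.06) led the glycolysis and lactate list, whose cytosolic enzymes PGAM1 (0.364), TPI1 (0.428) and ALDOA (0.439) were lowest. Among the vessel signals and receptors KDR (14.4), NRP2 (12.3) and NRP1 (11.8) were highest and the ligand VEGFB, also a secreted protein, lowest (0.404). The secreted ANGPTL4 (20.7, on 24 and 4 reads) and the endoplasmic reticulum prolyl hydroxylases P4HA2 (14.9) and P4HA1 (8.93) led the HIF targets, and the mitochondrial adenylate kinase AK4 (0.181) was lowest. PKM's exon 9 share did not separate the fractions, at 1.69% (1.12 to 2.66) in the nuclear and 1.55% (1.23 to 1.96) in the cytoplasmic library. VEGFA reads from exon 5 went to exon 8 in 58.3% (42.2 to 72.9) and 55.4% (43.3 to 66.8), with overlapping intervals.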

How the data were processed

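The junction files hold raw counts of spliced reads per junction, deposited by the authors without normalization. Alignment with STAR 2.7.1, SAMtools 1.9 and build hg38 are named by the submitters' processing notes; the junction caller is not given in the sources used here. The authors also deposited 9 tables of splicing events with inclusion differences (fractions from -1 to 1), p-values and adjusted p-values; their 69 columns of per-library values were not used. Introns were taken from GENCODE 29 (GRCh38). Counts on introns of 1 gene were summed per gene (93.4% to 94.8% of reads) and scaled to 1000000 (CPM).

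Gene counts were tested with edgeR 4.0.16 (quasi-likelihood test, TMM factors, filterByExpr, Benjamini-Hochberg over all 13628 genes, threshold 0.05), with library set and knockdown as terms over 14 libraries, and junction use with its diffSpliceDGE. The set is a term of the main model. After removal of knockdown means, the median correlation of residuals within a set was 0.55 over 18 pairs, from 0.30 to 0.75. Time and series stay in these residuals, so the correlation cannot show a pairing of libraries beyond them. On simulated counts of total KD against control, 81.5% of 200 genes changed by 1 (log2) were recovered among 13381 genes, and 56.5% of 200 junctions among 116190. Beyond these, 9 unchanged genes and 9 other junctions were called. The simulated levels carried no differences between library sets, and smaller changes were not simulated. Single libraries were compared by CPM ratios with exact conditional binomial 95% intervals and a threshold of 2-fold. DESeq2 1.42.0, limma 3.58.1, library size scaling, no filter, other controls and leaving out each library were alternatives. Genes of each list named are the 3 that passed with the largest change in the same direction in every set, or the 3 highest and 3 lowest ratios with at least 20 reads between single libraries. The 10 genes and the lists were chosen with earlier results of these data known. Likeness used a pseudocount of 0.5 reads.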

Additional observations from a re-analysis of the deposited data

Results flagged for a closer look

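In 4 comparisons a member went up in 1 library set and down in another with exact intervals of both ratios off 1; each rests on 1 library per arm, the intervals cover counting error only, and the differences between sets were not tested. LDHA in N-short KD was 1.26 times the control at 48 hr and 0.938 times in the second 24 hr set. SLC2A3 in N-short KD was 1.06 times the control at 48 hr and 0.944 times in the second 24 hr set. Between the isoform knockdowns, N-long over N-short KD, LDHA was at 1.11 in the second 24 hr set and 0.945 at 96 hr, and SLC2A1 at 1.08 at 96 hr and 0.889 in the first 24 hr set.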

How the results depend on the processing

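Of the 205 values of called members under alternatives, 192 kept direction and call and 13 kept only the direction; those are named in the report. The count of members called in total KD was 2 and became 1 (PKM lost) with time point in place of library set, that is with no replicate block, and 1 to 2 without 1 library each. DESeq2 gave VEGFA no adjusted p in total KD (log2 change 0.83, unadjusted p = 1.2e-10) and called 1 of the 6 members with one, as edgeR did of these. For the PKM exon 8 to exon 9 junction in total KD, limma gave 1.17 and no call (0 junctions), and leaving out 1 library gave 1.08 to 1.22 and 0 to 1 junctions; between the 24 hr sets leaving out 1 library gave 0 to 1 PKM exon 9 and 10 junctions. With TMM factors 1 member in place of 2 was over 2-fold higher in HEK293 than HUES66, and the PKM ratio became 0.872. Genes called in total KD were 300, against 536 with wild-type HUES66 as a further control, 62 with no replicate block and 162 to 333 without 1 library, with the lowest count when the control of 96 hr was left out; for N-short KD they were 0 against 4 with no filter, for N-long KD 3 against 16 with no filter and 0 with no replicate block, and for N-long against N-short KD 2 against 17 and 0. Junctions called between the 24 hr sets were 844, against 1494 with limma and 288 to 559 without 1 library. Leaving out 1 library gave 43 to 71 in place of 77 for total KD, 3 to 8 in place of 7 for N-short KD, 15 to 34 in place of 32 for N-long KD and 13 to 25 in place of 24 between the isoform knockdowns. Depth limited the tests of VEGFA exon use (15 to 50 reads a treated library) and the A375 ratios of EGLN3 (1 read).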
